A study of Mus musculus with 126 samples.

Results

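The respiratory chain and ATP synthase of mitochondria are built from subunits encoded in the nucleus together with a small set encoded in mitochondrial DNA. Complex I (NADH dehydrogenase), complex II (succinate dehydrogenase), complex III (ubiquinol-cytochrome c reductase) and complex IV (cytochrome c oxidase) pass electrons to oxygen and, except for complex II, pump protons, and ATP synthase (complex V) uses the proton gradient to make ATP. The colonic epithelium oxidises butyrate from bacterial fermentation and spends ATP on ion transport, so it is rich in mitochondria. The nuclear-encoded subunits were taken as all genes whose symbols begin with Nduf followed by a, b, s, v or c and a number, with Uqcr, with Cox4 to Cox8 or with Atp5, plus Sdha to Sdhd, and whose mean FPKM reached 1 in at least 1 of 7 conditions. FPKM is a count of sequenced fragments scaled by transcript length and by the mapped fragments of the library. The symbols matched 84 of 24883 genes, and 79 of them reached the minimum and passed the filter for testing, beside 11380 tested genes in all.

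The colon RNA of mice was sequenced as 126 libraries from 7 conditions, with 3 libraries per condition at every 4 h step of zeitgeber time (ZT, counted from lights on), 6 steps in all. Mice with a gut-specific knock out of Bmal1, the core clock activator, and mice with a gut-specific knock out of MR, the mineralocorticoid receptor, were 8 to 12 weeks old, and they ate normal chow ad libitum, as did the wild type mice, for which the labels used here state no age. Food given only by day or only by night, on a high salt or a low salt diet, made up the 4 feeding groups (high salt day fed and night fed, low salt day fed and night fed), all of male C57BL/6 mice aged 8 weeks under 12 h of light and 12 h of dark. The promoter that drives the deletion, the litter of the controls and whether each library is 1 animal are not given, so p-values measure the spread between libraries.

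Rescaled values divide the FPKM of a library by 1 factor per library, the median ratio over 6966 genes measured in all libraries. The factor ran 0.297 to 1.48 in Bmal1 knock out libraries, 0.654 to 1.42 in MR knock out libraries and 0.82 to 1.32 in wild type libraries. It was under 0.6 in 14 libraries, of which 9 were Bmal1 knock out (8 of them at ZT12, ZT16 and ZT20) and 5 came from the high salt night fed group (3 at ZT8, 2 at ZT12). The relative number of mapped reads, read from the steps that whole reads leave in low FPKM values, had a median of 1.02 in those 14 libraries and 1.02 in the others. The mean of the deleted gene was lower in each knock out than in wild type. Arntl, the gene of BMAL1, averaged 4.42 ± 0.995 rescaled FPKM in Bmal1 knock out and 9.35 ± 6.31 in wild type (SD, n = 18 each). Its Bmal1 knock out range, 2.88 to 6.29, lay inside the wild type range, 2.25 to 19.2. Nr3c2, the gene of MR, averaged 3.06 ± 0.991 in MR knock out and 15.2 ± 4.92 in wild type. Its mean was 6.38 ± 3.45 in the Bmal1 knock out libraries. All 8 listed markers of colonic epithelium were expressed in every group, whereas 5 of 7 smooth muscle markers averaged under 1 rescaled FPKM in every group. The other 2, Smtn and Tagln, averaged 3.25 to 4.64 and 1.21 to 2.09 over the groups. Epithelial markers differed between genotypes in both directions. In Bmal1 knock out, MR knock out and wild type, Slc26a3 averaged 60.1, 158 and 217 and Cdh1 115, 163 and 192. Cdx2 averaged 129, 130 and 83.3 and Krt20 376, 640 and 316 in the same order. Markers of other cell types also moved with genotype and with feeding group. The summed goblet cell markers had a median of 14450 rescaled FPKM in Bmal1 knock out libraries (range 5909 to 22584), 11516 in MR knock out libraries (3287 to 20458) and 3927 in wild type libraries (3503 to 13945). Spink4 made up most of this sum, with means of 12277, 8493 and 2407 in the same groups. The other goblet cell markers did not move as a set: Fcgbp averaged 376, 372 and 228, Tff3 1331, 1228 and 1238, and Muc2 630, 706 and 847. The summed T cell markers had medians of 3.35, 6.68 and 2.97 in the same 3 groups and the haemoglobin genes 17.9, 72.9 and 23.3. In the feeding groups the T cell sum had medians of 7.23 (high salt, day), 3.24 (high salt, night), 5.03 (low salt, day) and 9.46 (low salt, night), and the part of any of these in the results below was not tested. In bulk RNA, fewer cells of a type and less RNA per cell cannot be told apart.

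The promoters of 6 genes are shown here because the first 4 were higher in Bmal1 knock out colon under every scaling tried, Atp5b was lower under every scaling, and Sdha was lower under the rescaling used as the main one. Each runs 5′ to 3′ from 250 bases before the annotated start to 50 bases after it (RefSeq, GRCm38.p6). Capitals mark matches, on either strand, to CACGTG (the E-box bound by BMAL1 with CLOCK), CCGGAAG (an ETS motif, bound by GABPA), GCATGCGC (an NRF1 motif), AAGGTCA (a motif of estrogen-related receptors) or AAGATGGC (a YY1 motif).
Ndufb7, chr8:83566508-83566807, plus strand: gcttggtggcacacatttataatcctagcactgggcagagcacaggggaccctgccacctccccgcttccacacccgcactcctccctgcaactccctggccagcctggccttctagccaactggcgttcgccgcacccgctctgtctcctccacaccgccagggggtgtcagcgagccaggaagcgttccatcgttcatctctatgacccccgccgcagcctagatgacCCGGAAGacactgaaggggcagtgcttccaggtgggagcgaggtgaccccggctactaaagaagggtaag
Atp5e, chr2:174464052-174464351, minus strand: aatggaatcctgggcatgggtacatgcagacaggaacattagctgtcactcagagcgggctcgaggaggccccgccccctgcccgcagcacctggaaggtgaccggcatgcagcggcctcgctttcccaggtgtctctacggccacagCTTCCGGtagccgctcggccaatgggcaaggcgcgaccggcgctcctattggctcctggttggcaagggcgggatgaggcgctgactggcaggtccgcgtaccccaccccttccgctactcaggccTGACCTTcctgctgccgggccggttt
Ndufs3, chr2:90904672-90904971, minus strand: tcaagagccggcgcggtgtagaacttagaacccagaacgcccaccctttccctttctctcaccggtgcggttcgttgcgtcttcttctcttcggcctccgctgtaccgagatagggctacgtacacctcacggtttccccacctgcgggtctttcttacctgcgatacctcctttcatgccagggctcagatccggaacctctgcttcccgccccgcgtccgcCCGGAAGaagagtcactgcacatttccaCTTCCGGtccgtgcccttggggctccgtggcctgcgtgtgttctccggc
Atp5g1, chr11:96075582-96075881, minus strand: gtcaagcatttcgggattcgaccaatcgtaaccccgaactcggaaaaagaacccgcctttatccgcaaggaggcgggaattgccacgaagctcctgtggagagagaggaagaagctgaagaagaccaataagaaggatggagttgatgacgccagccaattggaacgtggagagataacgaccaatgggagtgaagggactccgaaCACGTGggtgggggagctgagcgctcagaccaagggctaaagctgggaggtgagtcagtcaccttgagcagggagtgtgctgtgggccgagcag
Atp5b, chr10:128083057-128083356, plus strand: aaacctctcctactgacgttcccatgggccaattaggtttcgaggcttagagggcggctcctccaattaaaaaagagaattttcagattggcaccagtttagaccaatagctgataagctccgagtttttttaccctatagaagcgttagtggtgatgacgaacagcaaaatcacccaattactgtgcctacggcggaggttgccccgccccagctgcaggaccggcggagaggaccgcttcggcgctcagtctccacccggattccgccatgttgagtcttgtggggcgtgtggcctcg
Sdha, chr13:74350191-74350490, minus strand: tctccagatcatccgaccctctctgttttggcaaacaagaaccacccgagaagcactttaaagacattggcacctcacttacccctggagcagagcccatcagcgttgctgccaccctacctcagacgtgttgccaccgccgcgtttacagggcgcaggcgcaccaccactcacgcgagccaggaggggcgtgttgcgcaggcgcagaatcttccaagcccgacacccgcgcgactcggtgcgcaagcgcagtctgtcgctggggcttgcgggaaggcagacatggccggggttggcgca
Over all 70 promoters listed for 65 of the genes, the E-box was found in 8.57%, against 10.1% of 10913 promoters of tested genes. The ETS motif was in 22.9% and 18.2%, the NRF1 motif in 14.3% and 5.3%, the estrogen-related receptor motif in 11.4% and 3.41% and the YY1 motif in 12.9% and 4.72% of the same sets. These are letter matches in a fixed window, given as a description, and 33 of the 70 promoters, those of Atp5b and Sdha among them, held none of the 5 motifs.

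The 79 genes held 36 complex I genes, 4 of complex II, 8 of complex III, 13 of complex IV, 15 of ATP synthase and 3 associated genes, and lay on 19 chromosomes. Ndufa4 is counted with complex I by its name, although its protein is now assigned to complex IV. The associated genes were Cox7a2l, which helps join complexes III and IV into supercomplexes, and Atp5s and Atp5sl, which carry an ATP synthase name but encode no core subunit. In rescaled FPKM, a level per transcript length, 73 of the 79 were among the 1000 highest of the tested genes and 11 among the 100 highest. Their summed deposited FPKM made up 7.94% ± 0.568 of all FPKM in Bmal1 knock out libraries, 7.19% ± 0.672 in MR knock out libraries and 6.78% ± 0.48 in wild type libraries (SD, n = 18 each). In the feeding groups that share averaged between 7.44% ± 0.433 (low salt night fed) and 7.51% ± 0.525 (high salt night fed).

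The levels were spread widely between complexes. In wild type colon, the median rescaled level was 755 FPKM for complex IV, 530 for complex III, 497 for ATP synthase, 155 for complex II and 137 for complex I. The highest genes over all groups were Atp5k, the e subunit of ATP synthase (1265 FPKM in wild type), Cox4i1, the regulatory subunit of complex IV (1167), Atp5e, the epsilon subunit of ATP synthase (784), Uqcrh, the hinge protein of complex III (865), and Cox8a, a small complex IV subunit (893). The lowest were Cox8b, Atp5s, Cox6b2, Atp5sl and Ndufa11, of which Ndufa11 averaged 23.3 ± 6.57 in wild type. Of the 79 genes, 76 stayed over 10 rescaled FPKM in every library.

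Isoforms named for heart and muscle or for testis fell on both sides of the minimum. Cox8b, the muscle form of COX8, was just inside it with a highest group mean of 2.13 deposited FPKM, and Atp5s was next at 4.63. Cox6a2, Cox4i2 and Ndufa4l2 were outside it with highest group means of 0.132, 0.115 and 0.0914, and Cox7b2 and Cox8c were listed at 0 in every library. Cox7a1, the heart and muscle form of COX7A, did not follow Cox6a2 and Cox8b: it had 113, 167 and 249 rescaled FPKM as the lowest, median and highest of 18 wild type libraries. Its paralogue Cox7a2 had 282, 345 and 568 in the same libraries. Ckm and Myh7, genes of striated muscle, averaged under 0.02 rescaled FPKM in every group, and Ucp1 and Adipoq, genes of fat, under 0.04.

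The annotated transcripts of these genes were short, with a median length of 742 nt against 2538 nt over tested genes, and 69 of 79 were shorter than 1891 nt, the bound that splits off the shortest 1 in 3 tested genes. Libraries differed in the balance of long against short transcripts, so this balance was measured on the other tested genes as a length score, the median log2 deviation of long transcripts (over 3282 nt) minus that of short ones (under 1891 nt). The score averaged -0.243 ± 0.343 in Bmal1 knock out mice, 0.0378 ± 0.31 in MR knock out mice and 0.432 ± 0.268 in wild type libraries (SD, n = 18 each). Over the 126 libraries the median deviation of the 79 genes followed it with Pearson's r = -0.96 and Spearman's rho = -0.96, and r was -0.96 without the 2 libraries farthest from the median score. Within each of the 7 groups r ran from -0.99 to -0.92, rho from -0.99 to -0.82, and r from -0.99 to -0.84 without the 2 farthest libraries. The largest of the 16 two-sided permutation p-values, and the largest after Benjamini-Hochberg adjustment over them, was 6e-05. The level results below are therefore given under 5 scalings: the rescaled values (the main one), FPKM as deposited, quantile normalization, and rescaled values corrected for transcript length alone or for length and GC content.

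**Figure D1:**
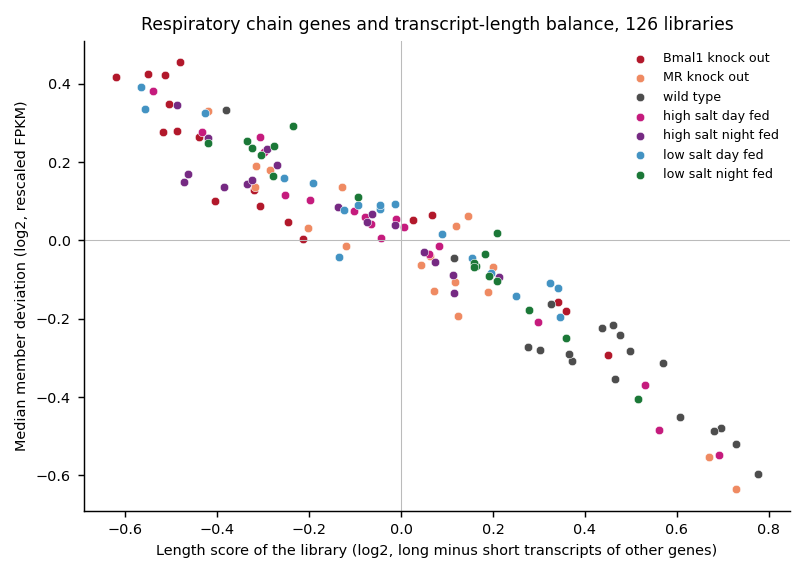
Each point is 1 of 126 libraries, with the length score measured on other genes (log2) on the x axis and the median log2 deviation of the 79 respiratory chain genes from their own means (rescaled FPKM) on the y axis, coloured by group. The points fall along 1 line with r = -0.96, and most wild type libraries sit at its long-transcript, low end.

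In Bmal1 knock out colon most respiratory chain genes were higher than in wild type once libraries were rescaled. Of 79 genes, 59 were higher and 6 lower, against 31.1% of tested genes higher and 49.2% lower (limma, adjusted p under the threshold of 0.05, contrast averaged over the 6 times). The median log2 difference was 0.41, against -0.13 over tested genes. By complex, 29 of 36 complex I genes, 2 of 4 of complex II, 6 of 8 of complex III, 11 of 13 of complex IV and 11 of 15 of ATP synthase rose, and none of the 3 associated genes passed. These counts turned with the scaling: as deposited, 6 were higher and 55 lower with a median of -0.49 (tested genes -0.89), after quantile normalization 32 and 30 with 0.02, after length correction 41 and 25 with 0.09, and after length and GC correction 41 and 24 with 0.11.

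Only 6 genes rose and 5 fell under all 5 scalings, against 3.35% and 26.7% of tested genes. The genes that rose were Ndufa2, Ndufb7 and Ndufs3 of complex I, Uqcrq of complex III, and Atp5e and Atp5g1 of ATP synthase. Those that fell were Ndufs1, Ndufa1, Uqcrc2, Atp5b and Cox8b. Apart from Ndufa1, these genes also passed in every further setting run, including each fit without 1 replicate and the fit without the 14 libraries of low scale. The latter fit held no Bmal1 knock out library at ZT12 or ZT16. Ndufa1 did not pass without replicate 2 (log2 difference -0.15, adjusted p = 0.115) or without the low-scale libraries (-0.00, adjusted p = 0.999).

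Ndufb7, an accessory subunit of the complex I membrane arm, had 215, 729 and 976 rescaled FPKM as the lowest, median and highest of 18 Bmal1 knock out libraries, against 138, 212 and 468 in wild type libraries. As deposited the same values were 255, 388 and 654 in Bmal1 knock out and 173, 255 and 383 in wild type. The ranges overlapped: Bmal1 knock out libraries at ZT4 averaged 244 ± 28.9, against 200 ± 43.6 in wild type (SD, n = 3 each), while at ZT16 they averaged 917 ± 51.2, against 277 ± 82.7 in wild type. The log2 difference was 1.50 (SE 0.15, adjusted p = 5.33e-11), 1.02 after length correction and 0.60 as deposited, and it was positive at 6 of 6 times.

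Ndufa2, an accessory subunit of the matrix arm of complex I, had 150, 577 and 793 rescaled FPKM in Bmal1 knock out libraries, against 103, 150 and 412 in wild type libraries. Its log2 difference of 1.56 (SE 0.17, adjusted p = 2.88e-10) was the largest of the 79 and was positive at 6 of 6 times. Uqcrq, a small accessory subunit of complex III, had 489, 1745 and 2399 in Bmal1 knock out libraries, against 338, 456 and 1179 in wild type libraries (log2 difference 1.50, SE 0.16, adjusted p = 3.66e-10). Atp5e had 703, 2689 and 3912 in Bmal1 knock out libraries, against 495, 693 and 2145 in wild type libraries (1.47, SE 0.18, adjusted p = 3.56e-09). In all 4 genes the lowest Bmal1 knock out library lay at about the wild type median or above it, and the ranges overlapped.

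Ndufs3, a core subunit of the matrix arm, averaged 285 ± 93.9 rescaled FPKM in Bmal1 knock out and 121 ± 42.9 in wild type, with a log2 difference of 1.19 (SE 0.12, adjusted p = 1.06e-10). Atp5g1, 1 of 3 genes for the same c subunit of the ATP synthase ring, averaged 799 ± 259 in Bmal1 knock out and 350 ± 98.8 in wild type, with 1.14 (SE 0.12, adjusted p = 1.45e-10). Its annotated transcripts run from 596 to 4715 nt, so the length correction of this gene is uncertain.

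Among the genes that fell in Bmal1 knock out were core subunits of complexes I, II, III and V. Ndufs1, the largest core subunit of complex I, had 21, 26.2 and 59.6 rescaled FPKM as the lowest, median and highest in Bmal1 knock out libraries, against 28, 44.7 and 49.4 in wild type libraries. Bmal1 knock out spread over the whole wild type range, with 55.8 ± 3.36 at ZT4 and 22.1 ± 0.947 at ZT20, against 42.0 ± 3.99 and 42.7 ± 2.15 in wild type (SD, n = 3 each). The log2 difference was -0.45 (SE 0.10, adjusted p = 5.93e-05), and it was negative at 5 of 6 times. Atp5b, the catalytic beta subunit of ATP synthase, averaged 666 ± 142 in Bmal1 knock out and 752 ± 54.4 in wild type (log2 difference -0.20, SE 0.04, adjusted p = 7.76e-05). Uqcrc2, a core subunit of complex III, averaged 130 ± 34.4 in Bmal1 knock out and 146 ± 11.3 in wild type (-0.21, SE 0.05, adjusted p = 0.000173). Sdha, the flavoprotein of complex II, averaged 97.9 ± 22.4 in Bmal1 knock out and 119 ± 10 in wild type (-0.31, SE 0.06, adjusted p = 2.7e-05), but after length correction its difference was -0.11 and it is not among the 5. Atp5a1 and Atp5c1, the alpha and gamma subunits of ATP synthase, had log2 differences of -0.07 and -0.05 and did not pass.

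Cox8b was listed at 0 in 16 of 18 Bmal1 knock out libraries, 11 of 18 MR knock out libraries and 3 of 18 wild type libraries. Its highest rescaled values were 0.137 in Bmal1 knock out mice, 0.282 in MR knock out mice and 0.81 in wild type. The log2 differences on the log2(value + 0.5) scale were -0.68 (SE 0.08, adjusted p = 4.26e-09) for Bmal1 knock out and -0.51 (SE 0.08, adjusted p = 3.74e-06) for MR knock out. The number of reads behind levels this far under 1 FPKM is not known.

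**Figure D2:**
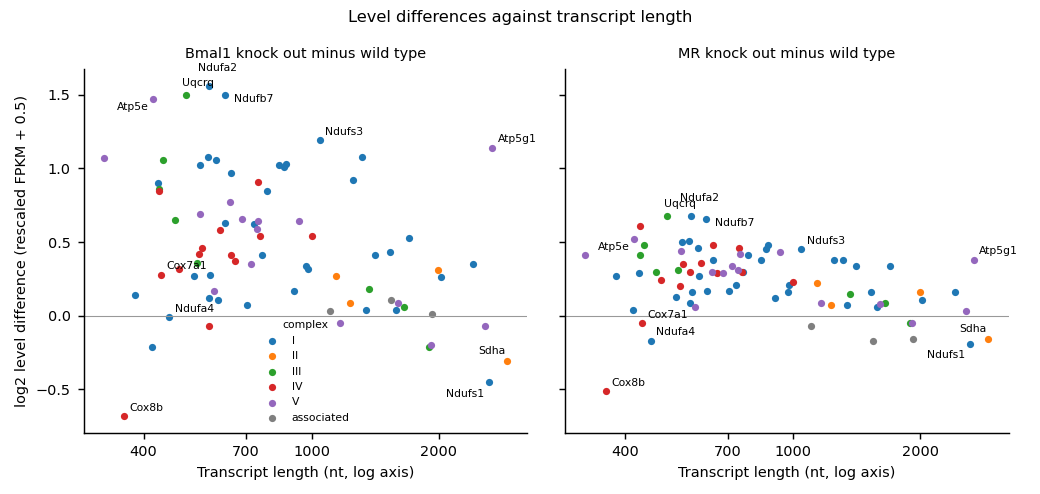
Each point is 1 of the 79 genes, with annotated transcript length (nt, log axis) on the x axis and the log2 level difference on rescaled FPKM on the y axis, for Bmal1 knock out minus wild type (left) and MR knock out minus wild type (right), coloured by complex. Shorter transcripts lie higher (Spearman's rho -0.31 and -0.36 over the 79 genes, which share libraries), and Ndufs1 and Sdha lie below 0 at the long end.

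In MR knock out colon most of the genes were also higher after rescaling. Of 79 genes, 52 were higher and 5 lower than in wild type, against 24.7% and 41.3% of tested genes, and the median log2 difference was 0.29 against -0.08. Both genotype comparisons use the same wild type libraries. As deposited, 13 were higher and 4 lower with a median of 0.11 (tested genes -0.24), after quantile normalization 22 and 21 with -0.02, after length correction 34 and 10 with 0.08, and after length and GC correction 33 and 10 with 0.10. Without replicate 1 the rescaled counts were 22 higher and 1 lower, and without replicate 2 they were 22 and 3. Under all 5 scalings 11 genes were higher and 3 lower, against 7.61% and 18.6% of tested genes.

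The 11 were Ndufa2, Ndufa8, Ndufa11, Ndufb7, Ndufs3, Ndufs6 and Ndufs7 of complex I, Uqcrq and Uqcr11 of complex III, and Cox5b and Cox6b2 of complex IV. Ndufb7 had 161, 351 and 553 rescaled FPKM as the lowest, median and highest in MR knock out libraries, against 138, 212 and 468 in wild type libraries, and the ranges overlapped over most of their width. Its log2 difference was 0.66 (SE 0.15, adjusted p = 0.000324), and those of Ndufa2 and Uqcrq were both 0.68 (adjusted p = 0.000817 and 0.000532). Cox6b2, named as the testis form of COX6B, averaged 6.37 ± 2.4 in MR knock out and 3.84 ± 1.29 in wild type (0.61, SE 0.14, adjusted p = 0.000457). Cox5b, a zinc-binding subunit of complex IV, averaged 1055 ± 250 in MR knock out and 764 ± 206 in wild type (0.46, SE 0.11, adjusted p = 0.000483).

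The 3 lower genes were Cox8b, Ndufa4 and Atp5sl. Ndufa4 had 211, 240 and 317 in MR knock out libraries, against 252, 275 and 326 in wild type libraries, and the MR knock out median lay below the lowest wild type library. Its log2 difference was -0.17 (SE 0.05, adjusted p = 0.00528), and -0.42 after length correction. The core subunits Ndufs1, Uqcrc2, Atp5b and Atp5a1 had differences of -0.19, -0.05, -0.05 and 0.03 and did not pass. The difference between the 2 knock outs was not tested.

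**Figure D3:**
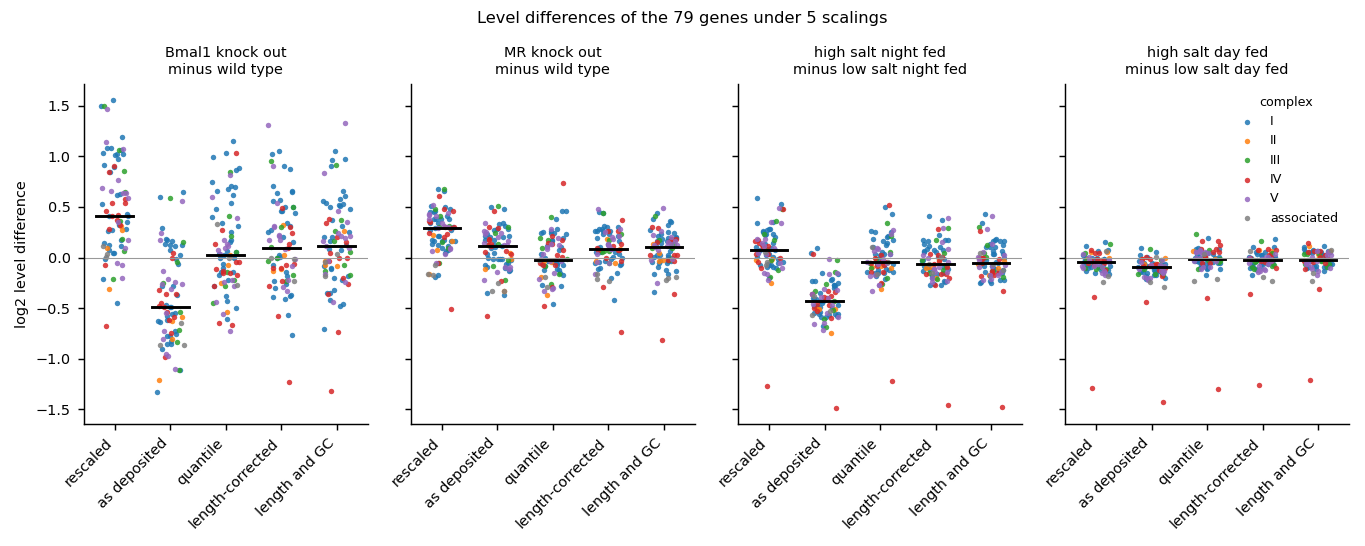
Each point is 1 of the 79 genes, with its log2 level difference on the y axis under 5 scalings (x axis) in 4 comparisons, coloured by complex, and black bars mark medians. In Bmal1 knock out minus wild type the median runs from -0.49 as deposited to 0.41 rescaled, while in high salt day fed minus low salt day fed it stays between -0.09 and -0.01 and Cox8b lies apart near the bottom.

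Within a library, the ratio of 2 isoforms does not depend on the scale factor. The ratio of Cox7a1 to Cox7a2, on deposited FPKM, had a geometric mean of 0.44 in Bmal1 knock out libraries, 0.369 in MR knock out libraries and 0.468 in wild type libraries. Its mean log2 value was -1.44 ± 0.20 in MR knock out and -1.10 ± 0.12 in wild type (SD, n = 18 each), lower at 6 of 6 times (permutation within times, two-sided, p = 1e-05, the smallest the 100000 resamples can give, adjusted p = 6e-05 over 18 ratio tests). The ratio was also lower in high salt day fed at -1.65 ± 0.29 than in low salt day fed at -1.31 ± 0.19, at 6 of 6 times (permutation p = 1e-05, adjusted p = 6e-05), and than in high salt night fed at -1.36 ± 0.28, at 5 of 6 times (permutation p = 0.00062, adjusted p = 0.00186). In Bmal1 knock out it was -1.18 ± 0.16 and the difference of -0.09 from wild type did not pass (permutation p = 0.0842, adjusted p = 0.178).

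The ratios of the c subunit genes differed between genotypes as well. The mean log2 ratio of Atp5g1 to Atp5g3 was -0.23 ± 0.63 in Bmal1 knock out and -1.02 ± 0.19 in wild type, higher at 5 of 6 times (permutation p = 2e-05, adjusted p = 9e-05). It was -0.98 ± 0.25 in MR knock out, 0.04 above wild type (permutation p = 0.591, adjusted p = 0.626). The ratio was also higher in high salt night fed, -0.48 ± 0.55, than in low salt night fed, -0.88 ± 0.27 (permutation p = 0.00237, adjusted p = 0.00609). The mean log2 ratio of Atp5g2 to Atp5g3 was lower than in wild type at 6 of 6 times in both genotypes, at -1.30 ± 0.13 in Bmal1 knock out mice, -1.40 ± 0.17 in MR knock out mice and -1.12 ± 0.13 in wild type (permutation p = 0.00059 and 1e-05, adjusted p = 0.00186 and 6e-05). The transcripts of a pair differ in length, and the part of the length balance of libraries in these ratios was not tested.

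In the feeding groups, few of the genes differed between day and night feeding on low salt. A single gene, Ndufa10 of complex I, was higher in low salt day fed colon and 0 were lower, against 1.04% and 2.29% of tested genes. At an unadjusted p under 0.05, 4 were higher and 3 lower. Ndufa10 averaged 131 ± 16.3 rescaled FPKM in low salt day fed and 117 ± 15.3 in low salt night fed, with a log2 difference of 0.16 (SE 0.05, adjusted p = 0.0431), higher at 6 of 6 times, and it did not pass in any fit without 1 replicate.

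On high salt, 3 of the 79 genes were higher in day fed than in night fed colon and 14 were lower, against 14.7% and 12.9% of tested genes. Uqcrc2, Atp5b and Sdha were the 3 that rose, and they rose under all 5 scalings, against 10.3% of tested genes, while 0 fell under all 5, against 0.439%. Atp5b averaged 793 ± 48.9 in high salt day fed and 717 ± 91.7 in high salt night fed (log2 difference 0.15, SE 0.04, adjusted p = 0.0033). The largest falls were in Ndufa2, Ndufb7 and Atp5e at -0.44, -0.43 and -0.42 (adjusted p = 0.017, 0.0172 and 0.0279), and as deposited these were 0.02, 0.03 and 0.03. Without the 5 high salt night fed libraries of low scale, 0 were higher and 1 lower (limma; 1 and 13 at an unadjusted p under 0.05). Leaving out replicate 1 gave 1 and 1, replicate 2 gave 2 and 32, and replicate 3 gave 0 and 0.

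High salt against low salt under night feeding gave 16 higher and 8 lower genes, against 15.4% and 19.6% of tested genes. The 8 include Cox8b, which reached the minimum of 1 FPKM only in the low salt groups, so that its place among the lower genes was favoured by the filter and is no support. The summed T cell markers were also lower, with medians of 3.24 in high salt night fed and 9.46 in low salt night fed libraries, and their part in these differences was not tested. Under all 5 scalings 0 were higher, against 0.615%, and the same 8 were lower, against 13.1%. They were Ndufa9 of complex I, Sdha, the core proteins Uqcrc1 and Uqcrc2 of complex III, 3 of the F1 subunits (Atp5a1, Atp5b and Atp5c1), and Cox8b. Atp5e, the epsilon subunit, went the other way and had 1 of the 3 largest rises, with Ndufb7 and Ndufa2, though not under all 5 scalings. Atp5b averaged 717 ± 91.7 in high salt night fed and 834 ± 72.9 in low salt night fed (log2 difference -0.22, SE 0.04, adjusted p = 2.08e-05), lower at 6 of 6 times. Sdha averaged 99.3 ± 18.8 in high salt night fed and 118 ± 17.6 in low salt night fed (-0.25, SE 0.06, adjusted p = 0.000889). Without the low-scale libraries 2 were lower, Atp5b at -0.19 (adjusted p = 0.00384) and Cox8b, and 0 were higher (limma; 10 higher and 5 lower at an unadjusted p under 0.05). Without replicate 1 the counts were 2 higher and 3 lower.

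Under day feeding, high salt gave 1 higher and 6 lower genes, against 7.79% and 7.05% of tested genes. Cox7a1, Cox7a2l and Cox8b were the 3 lower under all 5 scalings, against 4.35% of tested genes, and Cox8b again met the minimum only in the low salt groups. Cox7a1 had 71.6, 153 and 184 rescaled FPKM as the lowest, median and highest in high salt day fed libraries, against 115, 175 and 241 in low salt day fed libraries. Its log2 difference was -0.39 (SE 0.09, adjusted p = 0.00242), lower at 6 of 6 times. Cox7a2l averaged 175 ± 30.9 in high salt day fed and 206 ± 28.4 in low salt day fed (-0.24, SE 0.06, adjusted p = 0.00367). The 1 higher gene was Uqcrb, the ubiquinone-binding protein of complex III, at 0.13 (SE 0.04, adjusted p = 0.0217). Without replicate 1 the counts were 1 higher and 1 lower, and without replicate 3 they were 0 and 1.

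Cox8b met the minimum of 1 FPKM only in the low salt groups, with deposited means of 1.86 (day) and 2.13 (night) against 0.411 or less in every other group. Its levels by diet are therefore given as a description, and its calls in the salt counts above, favoured by the filter, are no support. It had 0, 0.331 and 1.07 rescaled FPKM as the lowest, median and highest in high salt day fed libraries, against 0.445, 1.26 and 3.68 in low salt day fed libraries. It had 0, 0.284 and 1.44 in high salt night fed libraries, against 0.196, 1.73 and 4.0 in low salt night fed libraries. It was listed at 0 in 6 of 18 libraries of each high salt group and in 0 of 18 of each low salt group. The ranges of the groups overlapped.

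The salt difference itself depended on feeding time in 10 of the 79 genes, against 19.8% of tested genes (limma interaction of salt and feeding time). It was more negative under day feeding in 9 of them, Ndufa2 with -0.60 (SE 0.20, adjusted p = 0.0285) being the largest. Sdha was the 1 gene that passed under all 5 scalings, against 8.37% of tested genes, with 0.25 (SE 0.08, adjusted p = 0.0299). Without the low-scale libraries 0 passed (limma; 9 at an unadjusted p under 0.05), and the count was 0, 31 and 0 without replicate 1, 2 and 3.

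**Figure D4:**
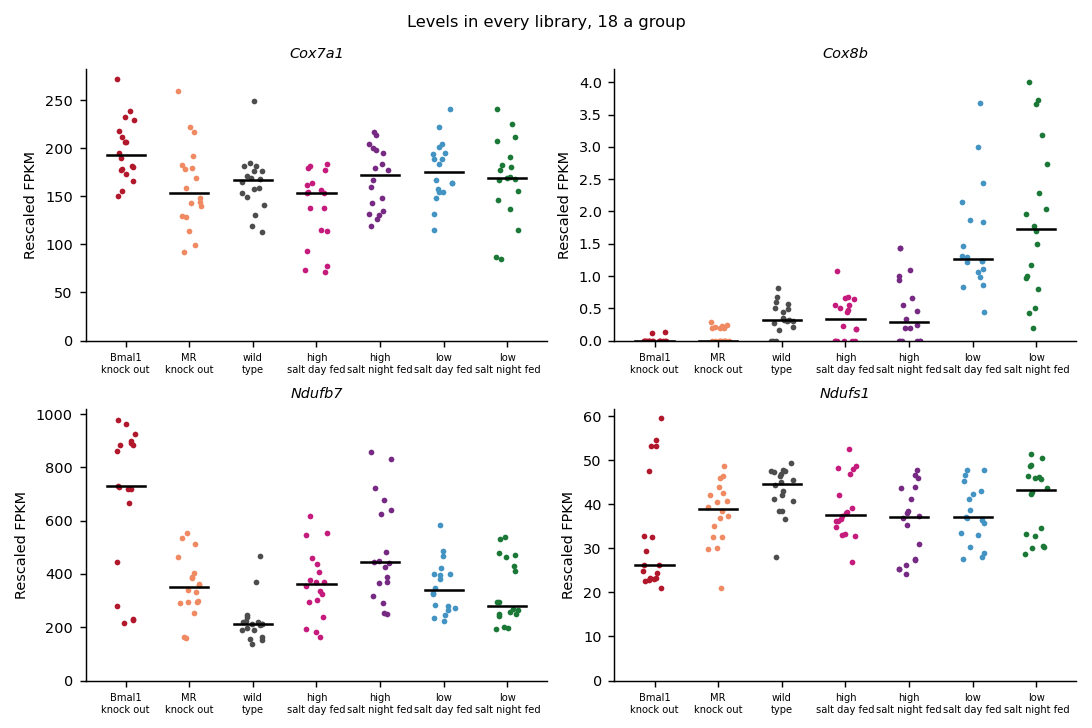
Rescaled FPKM (y axis, starting at 0) of Cox7a1, Cox8b, Ndufb7 and Ndufs1 in each of the 18 libraries of every group (x axis), with a bar at the median. Cox8b is highest in the low salt groups and at or near 0 in most Bmal1 knock out libraries, while Ndufb7 is highest in Bmal1 knock out with a median of 729.

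Rhythm over the day was tested by fitting a wave of 24 h to each group, and the amplitude is the height of that wave above its mean on the log2 scale. In wild type colon 8 of the 79 genes were rhythmic, against 17.7% of tested genes, with peaks from ZT5.91 to ZT12.7. In MR knock out 10 were, against 21.7%, with peaks from ZT7.47 to ZT10.6. None of the 79 was rhythmic under all 5 scalings in wild type (2.99% of tested genes were) or in MR knock out (5.07%). As deposited 0 were rhythmic in either group (limma). Cox7a2l had the largest amplitude in both, 0.32 (SE 0.06, adjusted p = 0.00042) with a peak at ZT7.98 in MR knock out and 0.27 (SE 0.06, adjusted p = 0.00194) with a peak at ZT9.14 in wild type. It averaged 195 ± 31 rescaled FPKM at ZT8 and 130 ± 0.747 at ZT20 in wild type (SD, n = 3 each). The rhythm of 0 genes differed between MR knock out and wild type, against 0.835% of tested genes (limma; 2 at an unadjusted p under 0.05). Without replicate 2 or 3, 0 were rhythmic in wild type, and 2 were in MR knock out.

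In Bmal1 knock out, where the clock activator is deleted, 43 of the 79 passed, against 56.7% of tested genes, and 34 under all 5 scalings, against 40.1%. The 9 libraries of low scale in this group lie at ZT0, ZT12, ZT16 and ZT20, and without the low-scale libraries 5 genes passed. That fit used a 24 h wave in place of 1 mean per time, and no Bmal1 knock out library at ZT12 or ZT16 remained in it. Without replicate 2 the count was 14. The difference in rhythm from wild type passed in 27, against 31.2%, and in 20 under all 5 scalings, against 19.1%, and without the low-scale libraries in 2. Without replicate 2 it passed in 1 and without replicate 3 in 14.

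Peaks in Bmal1 knock out ran from ZT1.04 to ZT18.2. Ndufa2, Atp5e and Ndufb7 had the largest amplitudes, 0.95, 0.94 and 0.85, with peaks at ZT16.5, ZT16.9 and ZT16.7 (adjusted p = 9.51e-05, 0.000222 and 9.45e-05). The rhythm of Atp5e passed under all 5 scalings, while those of Ndufa2 and Ndufb7 did not. Uqcrc2 averaged 126 ± 21, 191 ± 14.1, 145 ± 19.6, 116 ± 2.14, 97.2 ± 7.42 and 104 ± 10.9 rescaled FPKM at ZT0 to ZT20 in Bmal1 knock out (SD, n = 3 each). The same times gave 133 ± 3.37, 143 ± 0.958, 150 ± 9.58, 164 ± 6.44, 147 ± 12.4 and 142 ± 4.41 in wild type, so the knock out was highest at ZT4 and the wild type at ZT12. Its amplitude was 0.43 with a peak at ZT4.91 (adjusted p = 1.12e-07), and its rhythm differed from wild type by 0.47 (SE 0.07, adjusted p = 4.95e-05), 0.60 without the low-scale libraries (adjusted p = 0.0263). The last fit held no Bmal1 knock out library at ZT12 or ZT16, so its wave was extrapolated over those times. Uqcrc2 was the 1 gene whose rhythm difference from wild type passed in every setting run. Atp5b, Atp5a1 and Ndufs1 peaked at ZT4.99, ZT6.42 and ZT5.39 in Bmal1 knock out and, like Uqcrc2, were called rhythmic there in every setting. The length score of Bmal1 knock out libraries also changed with time, from 0.067 to 0.359 at ZT4 to between -0.519 and -0.214 at ZT12 to ZT20. At ZT0 it ran from -0.621 to 0.025 and at ZT8 from -0.550 to 0.450. Uqcrc2, Atp5b, Atp5a1 and Ndufs1 have transcripts of 1896, 1916, 2572 and 2625 nt, and Ndufa2, Atp5e and Ndufb7 of 572, 421 and 623 nt. The part of the length balance in these rhythms was not tested.

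On high salt, 40 of the 79 were rhythmic in day fed colon and 49 in night fed colon, against 31.6% and 57% of tested genes. Under all 5 scalings 1 and 27 passed, against 14.1% and 37.6%. On low salt, 35 were rhythmic in day fed colon and 6 in night fed colon, against 42.2% and 22.6% of tested genes, and under all 5 scalings 4 and 2, against 9.35% and 7.76%. Without the low-scale libraries 30 passed in high salt day fed colon and 1 in high salt night fed colon. Leaving out 1 replicate gave 1 to 60 genes (high salt, day), 26 to 40 (high salt, night), 3 to 8 (low salt, day) and 1 to 5 (low salt, night). The rhythmic genes peaked between ZT11.9 and ZT14.9 in high salt day fed colon and between ZT2.64 and ZT22.8 in low salt day fed colon.

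The rhythms that passed under all 5 scalings on low salt were few. In low salt night fed colon they were Cox7a1, with an amplitude of 0.38 and a peak at ZT13.4 (SE 0.09, adjusted p = 0.00768), and Cox7a2l, with 0.27 and a peak at ZT11.2 (SE 0.06, adjusted p = 0.00327). In low salt day fed colon they were Atp5s, Ndufa3, Ndufb8 and Ndufs4, with peaks at ZT22.8, ZT17.7, ZT15.0 and ZT18.4. In high salt day fed colon it was Cox6b2, with 0.69 and a peak at ZT14.0 (SE 0.13, adjusted p = 0.000366).

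Between day and night feeding, the rhythm differed in 18 of the 79 genes on low salt and in 16 on high salt, against 38.6% and 32.5% of tested genes. Under all 5 scalings it differed in 3 and 14, against 12.3% and 23.7%. Without the low-scale libraries 13 and 2 passed. Without 1 replicate the counts ran 1 to 8 on low salt and 5 to 12 on high salt. On low salt the 3 were Atp5s, Cox7a2l and Ndufs4, an accessory subunit of complex I.

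Atp5s was the 1 gene whose rhythm differed by feeding time on both diets in every setting run. It averaged 4.08 ± 0.61, 3.76 ± 0.711, 3.17 ± 0.59, 2.56 ± 0.169, 3.54 ± 0.396 and 4.19 ± 0.577 rescaled FPKM at ZT0 to ZT20 in low salt day fed colon (SD, n = 3 each). In low salt night fed colon the same times gave 3.73 ± 0.728, 3.42 ± 0.296, 4.52 ± 0.827, 4.01 ± 0.21, 3.73 ± 0.174 and 4.01 ± 0.191. The day fed group was lowest at ZT12, where its mean was below that of the night fed group by more than the SD of either. The difference in rhythm had an amplitude of 0.35 (SE 0.08, adjusted p = 0.0017). On high salt it averaged 2.99 ± 0.17, 2.9 ± 0.421, 3.67 ± 0.466, 4.25 ± 0.27, 4.46 ± 0.729 and 4.03 ± 0.382 in day fed colon, against 3.91 ± 0.72, 4.93 ± 0.668, 4.2 ± 0.266, 3.96 ± 0.395, 4.0 ± 0.232 and 3.42 ± 0.192 in night fed colon. The day fed group was highest at ZT16 and the night fed group at ZT4, and the difference was 0.40 (SE 0.08, adjusted p = 0.000268), 0.43 without the low-scale libraries (adjusted p = 0.000689). The last fit held no high salt night fed library at ZT8. Cox7a2l was highest at ZT20 in low salt day fed, 232 ± 15.9, and at ZT12 in low salt night fed, 250 ± 32.6 (difference in rhythm 0.36, SE 0.09, adjusted p = 0.00411).

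**Figure D5:**
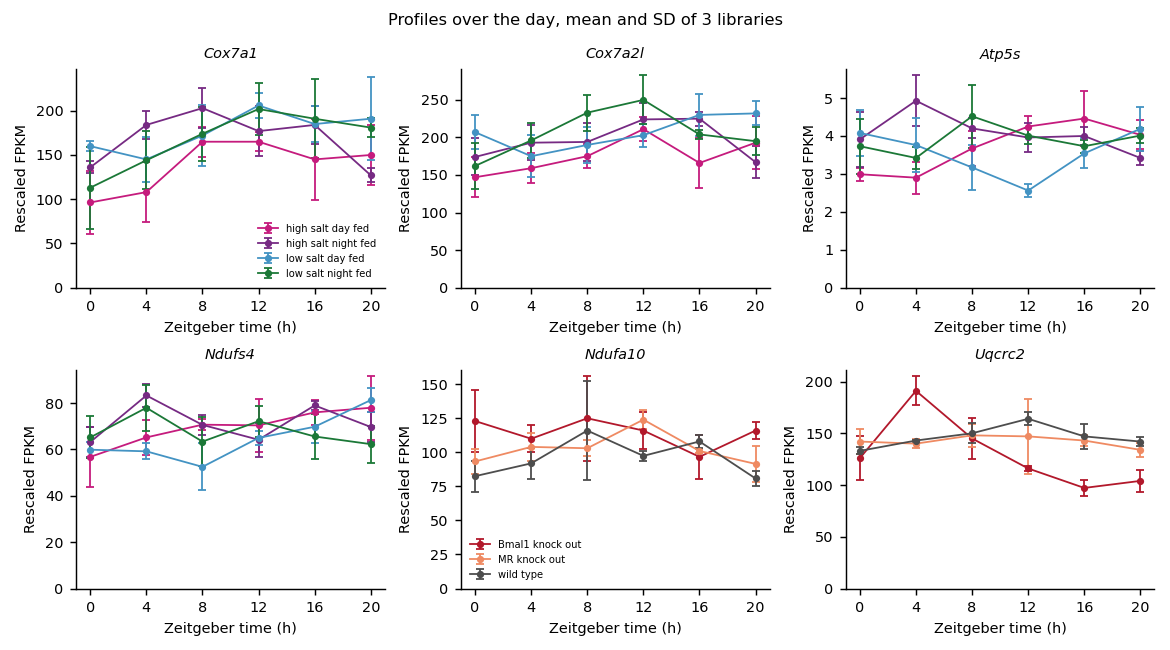
Mean rescaled FPKM (y axis, starting at 0) with SD over 3 libraries at each zeitgeber time (x axis, hours) for Cox7a1, Cox7a2l, Atp5s and Ndufs4 in the 4 feeding groups and for Ndufa10 and Uqcrc2 in the 3 genotypes. Atp5s is lowest at ZT12 in low salt day fed colon, and Uqcrc2 is highest at ZT4 in Bmal1 knock out and at ZT12 in wild type.

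Genes that work with the respiratory chain gave a mixed picture in Bmal1 knock out colon. Against 31.1% of tested genes higher and 49.2% lower, 26 of 45 assembly factors were higher and 11 lower than in wild type (median 0.21), and of 77 mitochondrial ribosomal protein genes 70 were higher and 4 lower (median 0.51). Both turned round as deposited, with 2 assembly factors higher and 38 lower (median -0.65) and 6 mitochondrial ribosomal protein genes higher and 51 lower (median -0.37). After length correction 23 and 12 assembly factors and 58 and 6 mitochondrial ribosomal protein genes were higher and lower. Pet100, an assembly factor of complex IV with a short transcript, averaged 65.1 ± 31.7 rescaled FPKM in Bmal1 knock out and 18.6 ± 7.73 in wild type (log2 difference 1.61, SE 0.16, adjusted p = 4.02e-11) and passed under all 5 scalings. Of 78 cytosolic ribosomal protein genes, whose transcripts have a median length of 772 nt, 73 were higher and 0 lower, with a median of 0.60 (limma; as deposited the median was -0.30 and after length correction 0.26). Of 19 genes of the tricarboxylic acid cycle and pyruvate entry, 4 were higher and 8 lower, with the same median as all tested genes, -0.13. The balance depended on the scaling, with 0 higher and 19 lower as deposited, 2 and 14 after quantile normalization, 5 and 4 after length correction, and 9 and 4 after length and GC correction. Slc25a5, an exchanger of ADP and ATP in the inner membrane, averaged 561 ± 177 in Bmal1 knock out and 839 ± 87.1 in wild type (-0.63, SE 0.06, adjusted p = 7.13e-12). Higd1a and Atpif1, from the same list of electron carriers and inner membrane genes, were higher, at 0.98 and 0.87 (limma, adjusted p = 6.03e-09 and 2.2e-09). As deposited their differences were 0.08 and -0.02. Slc25a5 passed under all 5 scalings, whereas Higd1a and Atpif1 did not.

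Of 17 tested regulators of respiratory gene expression, 13 were lower and 0 higher in Bmal1 knock out, and 12 were lower and 0 higher in MR knock out (limma). After quantile normalization 9 were lower and 3 higher in Bmal1 knock out, and 11 lower and 2 higher in MR knock out. The shares of tested genes were 49.2% lower and 31.1% higher in Bmal1 knock out, and 41.3% lower and 24.7% higher in MR knock out. After length correction 10 were lower and 4 higher in Bmal1 knock out, and 8 lower and 0 higher in MR knock out, and after length and GC correction 11 and 5, and 11 and 1. Their transcripts had a median length of 2682 nt, and their median log2 differences after length correction were -0.32 in Bmal1 knock out and -0.19 in MR knock out. Ppargc1a, the coactivator of mitochondrial biogenesis, averaged 2.78 ± 1.24 rescaled FPKM in Bmal1 knock out mice, 3.14 ± 0.987 in MR knock out mice and 5.48 ± 1.62 in wild type (log2 differences -0.90 and -0.71, adjusted p = 9.86e-09 and 3.1e-06). Esrrg, the estrogen-related receptor gamma, averaged 0.593 ± 0.23 in Bmal1 knock out mice, 0.451 ± 0.236 in MR knock out mice and 1.45 ± 0.333 in wild type (-0.84 and -1.06, adjusted p = 5.85e-10 and 1.01e-11). Both passed under all 5 scalings, with smaller differences after length correction: -0.47 for Ppargc1a and -0.37 for Esrrg in Bmal1 knock out, and -0.45 and -0.77 in MR knock out. After length and GC correction the Bmal1 knock out differences were -0.42 and -0.28. Esrrg reached the minimum of 1 FPKM only in wild type, and its mean was under 1 rescaled FPKM in every feeding group. Its lower level in both knock outs was therefore favoured by the filter and is no support, although it is counted among the 13 and the 12. Ppargc1a was also lower in high salt night fed, 2.77 ± 0.997, than in low salt night fed, 3.93 ± 1.37 (-0.43, SE 0.12, adjusted p = 0.0051), and Esrrg was lower on high salt under both feeding times (-0.36 under night feeding and -0.49 under day feeding, adjusted p = 0.00274 and 0.000163).

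In MR knock out, 13 of 45 assembly factors were higher and 15 lower, and 3 of 19 genes of the tricarboxylic acid cycle and pyruvate entry were higher and 10 lower, against 24.7% of tested genes higher and 41.3% lower. As deposited these were 3 and 13 of the assembly factors and 0 and 6 of the cycle genes, after quantile normalization 16 and 8, and 1 and 13, and after length and GC correction 9 and 10, and 5 and 4. Sdhaf3, an assembly factor of complex II, averaged 4.14 ± 1.36 in MR knock out and 6.85 ± 1.24 in wild type (-0.71, SE 0.11, adjusted p = 1.49e-06; -0.47 after length correction). Of 19 electron carriers and inner membrane genes, 12 were higher and 1 lower, but 5 and 1 as deposited and 8 and 7 after quantile normalization. Higd1a, a hypoxia-inducible protein that binds complex IV, averaged 197 ± 67.6 in MR knock out and 108 ± 24.4 in wild type (0.81, SE 0.12, adjusted p = 8.65e-07). Between high and low salt under night feeding, 8 of the 19 tricarboxylic acid cycle and pyruvate genes were lower and 0 higher (limma), against 19.6% and 15.4% of tested genes, and as deposited 18 were lower. The subunits encoded in mitochondrial DNA were not analysed here.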

How the data were processed

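Poly(A) RNA was extracted from mouse colon with TRIzol and sequenced from TruSeq stranded mRNA libraries, per the labels' protocols. The authors deposited FPKM values, 1 table of 18 libraries for each of 7 conditions, and the submitters' processing notes name TopHat2 2.1.1, Cufflinks 2.2.1 and mm10; the sources used here do not give the annotation or options. The tables hold no counts, so depth is unknown beyond a relative estimate: low values fall on whole-read steps (87.1% within 0.1 log2 of 1 to 5 reads, over 2292 genes), which put relative depth between 0.624 and 1.39. A single factor per library does not correct a balance between libraries that differs by transcript length.

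Genes with a mean of at least 1 FPKM in any condition were kept (11380 of 24883). FPKM was divided by a median-of-ratios factor per library and tested as log2(value + 0.5) with limma 3.58.1 (R 4.3.3), with 1 mean per condition and time, trend and robust variance moderation, and Benjamini-Hochberg adjustment over all tested genes at 0.05. The genotype fit had 54 libraries and 36 residual degrees of freedom, the feeding fit 72 and 48. Fold changes on this scale understate changes of low genes. Level contrasts averaged the 6 times; rhythm was an F test of 24 h cosine and sine terms. Isoform ratios were tested by 100000 permutations within times. Alternatives were the 4 other scalings, a pseudocount of 0.1, no filter, a replicate block, leaving out each replicate, and leaving out libraries with a factor under 0.6; length and GC correction and the ratios were added after the data had been seen. The fit without libraries under 0.6 used a 24 h wave per condition in place of 1 mean per condition and time. Transcript length is the median over a gene's GENCODE M21 basic transcripts. The code was tested on simulated data.

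The genes, the lists and the rules for naming genes were chosen with earlier results of these data known. Named were fixed core and isoform subunits, the 3 largest rises and falls per comparison, the 3 largest amplitudes per group, the 3 smallest adjusted p-values per rhythm difference, the highest and lowest levels, and genes whose calls held under every scaling, which were chosen after their values were seen. Replicates at one time differed by a median of 0.0889 to 0.531 log2 units, and no pair of libraries was identical. A gene of 1 list is not reported here.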

Additional observations from a re-analysis of the deposited data

Results flagged for a closer look

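The following results were picked out because a test of the difference between groups passed for some of the genes. The salt difference in level depended on feeding time in 10 of the 79 genes, Sdha being the 1 that passed under every scaling. The 24 h rhythm differed between Bmal1 knock out and wild type in 27 genes, with Uqcrc2 passing in every setting. It differed between day and night feeding in 18 genes on low salt and in 16 on high salt, and Atp5s passed in every setting on both diets. The shares of all tested genes that passed the same tests were 19.8%, 31.2%, 38.6% and 32.5%. The counts among the 79 genes lay below these shares, except in Bmal1 knock out, where the count was close to its share. No interaction, that of Sdha included, passed without the low-scale libraries or without replicate 1 or replicate 3. Without the low-scale libraries most rhythm differences in Bmal1 knock out and on high salt no longer passed.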

How the results depend on the processing

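The counts of called genes depended on how libraries were put on 1 scale and on single replicates, and the cause was not tested. A pseudocount of 0.1 and the replicate block left all 24 counts within the limit of 1.5 times. As deposited, 6 genes were higher and 55 lower in Bmal1 knock out against wild type, and 13 higher in MR knock out. There 0 were higher in low salt day against night, 71 higher and 0 lower in high salt day against night, 0 higher and 69 lower in high salt against low salt by night, and 0 higher by day. Rhythmic genes were then 75 (Bmal1), 0 (MR), 0 (wild type), 53 (low salt day) and 3 (high salt day), rhythm differences 74 (Bmal1) and 74 (high salt), and interactions 49. After quantile normalization the level counts were 32 and 30 (Bmal1), 22 and 21 (MR), 2 and 1 (low salt day against night), 15 higher (high salt day against night), 19 lower (salt by night) and 3 higher (salt by day). The rhythm counts were 3 (MR), 4 (wild type), 14 (low salt day) and 22 (high salt day), with 42 (Bmal1) and 34 (high salt) differences and 18 interactions. With length correction, 25 were lower (Bmal1), 34 higher and 10 lower (MR), 2 higher (low salt day against night), 18 higher and 9 lower (high salt day against night), 33 lower (salt by night), and 2 higher and 12 lower (salt by day). Rhythm counts were 13 (wild type), 13 (low salt night), 10 (low salt day) and 10 (high salt day), with 45 (Bmal1) and 36 (high salt) differences and 22 interactions. With length and GC correction, 24 were lower (Bmal1), 33 higher and 10 lower (MR), 3 higher and 1 lower (low salt day against night), 18 higher (high salt day against night), 35 lower (salt by night) and 12 lower (salt by day). Rhythm counts were 5 (MR), 15 (wild type), 16 (low salt night), 12 (low salt day) and 8 (high salt day), with 42 (Bmal1) and 38 (high salt) differences and 17 interactions. Without the filter, 0 were higher (low salt day against night), 7 lower (high salt day against night), 4, 5 and 16 rhythmic (MR, wild type, high salt day) and 2 showed an interaction.

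Without the low-scale libraries, 0 were higher (low salt day against night), 0 higher and 1 lower (high salt day against night), 0 higher and 2 lower (salt by night) and 0 higher (salt by day). Rhythmic were 5 (Bmal1) and 1 (high salt night), with 2 (Bmal1) and 2 (high salt) differences and 0 interactions. Without 1 replicate, counts ran 55 to 57 higher and 5 to 6 lower (Bmal1), 22 to 60 and 1 to 6 (MR), 0 to 0 and 0 to 0 (low salt day against night), 0 to 2 and 0 to 32 (high salt day against night), 2 to 20 and 3 to 6 (salt by night), and 0 to 1 and 1 to 4 (salt by day). Rhythmic genes ran 14 to 60 (Bmal1), 2 to 5 (MR), 0 to 5 (wild type), 1 to 60 (high salt day), 26 to 40 (high salt night), 3 to 8 (low salt day) and 1 to 5 (low salt night). Rhythm differences ran 1 to 18 (Bmal1), 0 to 0 (MR), 5 to 12 (high salt) and 1 to 8 (low salt), and interactions 0 to 31. The differences of 4 gene and comparison pairs changed sign as deposited: Ndufa2 0.02, Ndufb7 0.03 and Atp5e 0.03 in high salt day against night, and Atp5e -0.01 in salt by night.

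Equal replicate numbers did not pair the libraries: the correlation of same-numbered deviations had medians from -0.20 to 0.04 over comparisons, and 3 to 8 of 18 pairs were over 0.1. With the replicate block 59 genes were higher with Bmal1 knocked out, 51 with MR knocked out, and 10 showed the interaction. Depth is unknown, and Cox8b, at a median under 1 FPKM in 5 groups, has no known read support.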
